A study of Mus musculus with 10 samples.

Results

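The clustered protocadherins are cell adhesion proteins encoded in tandem gene clusters named alpha, beta and gamma. They were followed here in endothelial cells of the liver sinusoids (LSEC), isolated from mice on a CDAA diet and on a control diet labelled Std. Members were chosen by symbol alone (Pcdha, Pcdhac, Pcdhb, Pcdhga, Pcdhgb and Pcdhgc genes), which gave 55 of 24704 genes with a probe set: 11 alpha, 22 beta and 22 gamma genes. The gene annotation places all 55 on mouse chromosome 18. Pcdha4, Pcdha6 and Pcdha7 carry no named probe set and are not analysed here. The family was taken up because Pcdhgb5 and Pcdhga10 were already known to differ between the diets in these arrays. The diet difference of the members is therefore given as a description, without p-values.

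Female C57BL/6N mice were 10 weeks old when feeding began. The CDAA group received for 10 weeks a diet in which fat supplied 31% of calories and cholesterol made up 1%, and the Std group received a control diet for the same time. A treatment duration field of the labels reads 10 days, while the titles and the growth protocol give weeks, which are used here. A diet of that name in liver work commonly lacks choline and has a defined amino acid content, and gives rodents a fatty, scarred liver. Each of the 5 arrays per diet carried RNA of cells pooled from 3 mice, prepared by collagenase digestion, density gradient and magnetic beads against CD146. A design text attached to the series describes mice lacking Gata4 in these cells, a label that no sample carries.

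Clustered protocadherins are best known from neurons, where each cell turns on its own set of isoforms and like isoforms bind each other across cell contacts, so that branches of the same neuron recognise one another. Every alpha and gamma gene contributes its own large exon and promoter, spliced to constant exons shared by the whole cluster, which encode the inner end of the protein. Beta genes consist of a single exon and lack such a shared end. Promoters are chosen by the chromatin architecture proteins CTCF and cohesin, and DNA methylation keeps unchosen promoters silent. The C-type isoforms at the end of the alpha and gamma clusters follow other rules and are less subject to this choice.

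Signals are log2 values, and the median of each array was 3.89. No detection call is used here, so whether a signal below that median exceeds background is unknown. Differences that reach below it can understate the change in transcript. Which exon a probe set reads, and whether its probes also bind near-identical relatives, is not given in the sources used here. Levels are therefore compared between diets within a gene and not between genes. Pearson correlations between arrays across all genes, which are not independent replicates, were at least 0.972 within CDAA and at least 0.980 within Std. The isolate carried strong endothelial signal, with the vascular endothelial cadherin Cdh5 at 11.92 ± 0.41 with CDAA and 12.55 ± 0.06 with Std, and the sinusoidal scavenger receptor Stab2 at 11.31 ± 0.35 and 12.20 ± 0.10 (SD, n = 5 each). Mcam, the gene of CD146, was at 9.66 ± 0.34 with CDAA and 9.54 ± 0.10 with Std. Lyve1 was at 11.46 ± 0.43 with CDAA and 11.88 ± 0.15 with Std (SD, n = 5 each). Neither Mcam nor Lyve1 passed the limma threshold between the diets. The isolate also carried signal of other liver cells.

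Some gamma and beta protocadherins, and no alpha protocadherin, were lower with CDAA past the threshold, and no member was higher. Of the 55 members, 20 were lower with CDAA at a limma Benjamini-Hochberg adjusted p under 0.05, against a background of 9.13% of all genes lower and 16.6% called in either direction. They comprised 12 of 22 gamma genes, 8 of 22 beta genes and 0 of 11 alpha genes. The count of higher members was 0 by limma, against a background of 7.49%, and stayed 0 at an unadjusted p under 0.05, where 29 members were lower. Among alpha genes, 1 was lower at an unadjusted p under 0.05. Over all 24704 genes, 3990 were lower and 3004 higher at that unadjusted level. A difference is the CDAA minus Std gap in log2 signal. Its median was -0.84 over gamma genes, -0.38 over beta genes and -0.13 over alpha genes, beside -0.02 over all genes. The difference was below 0 for 21 of 22 gamma, 19 of 22 beta and 8 of 11 alpha genes. Over the whole table it was below 0 for 13254 of 24704 genes. All 5 CDAA arrays lay below all 5 Std arrays for 16 members, 10 gamma and 6 beta, against a background of 7.73% of all genes. The opposite separation was found for 0 members and 6.16% of all genes. Since results of this contrast led to the choice of the family, nothing is read from these counts beyond their values.

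**Figure D1:**
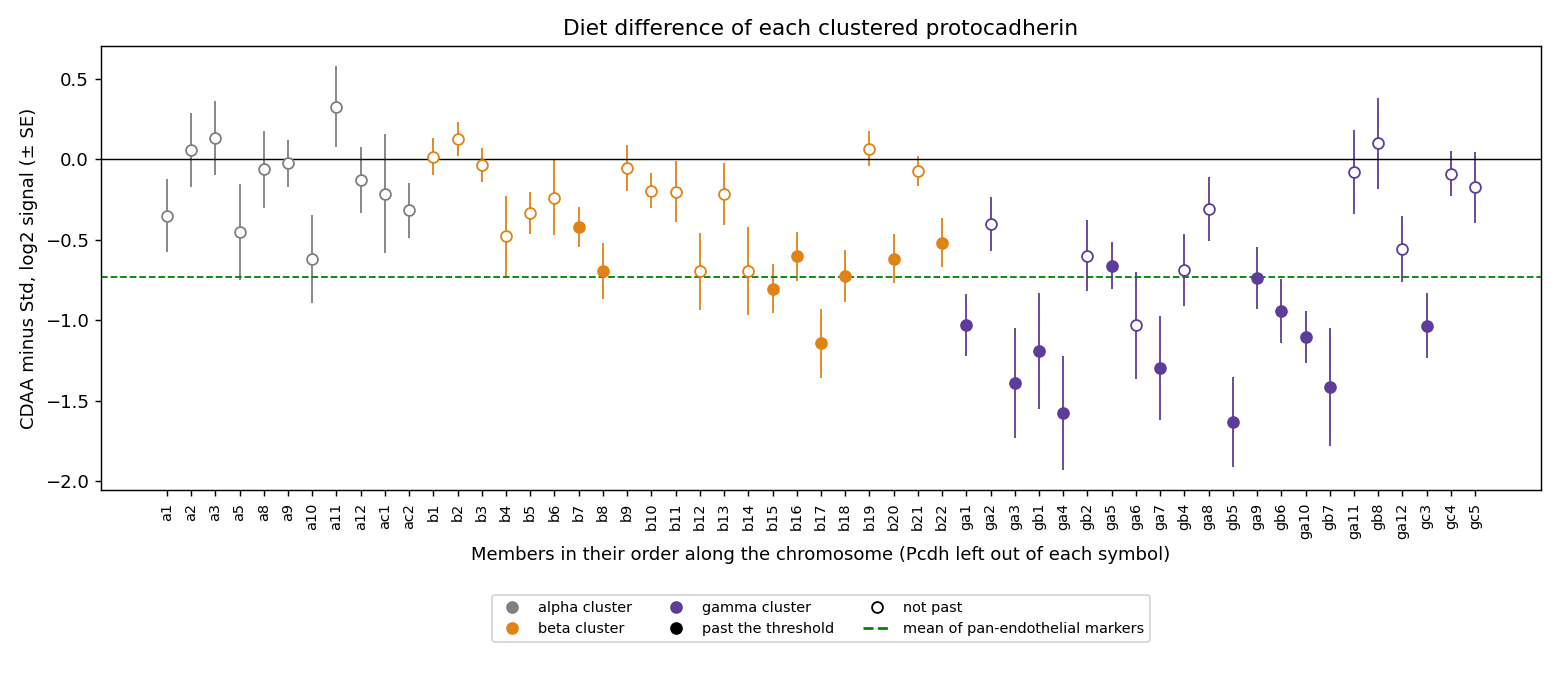
CDAA minus Std difference in log2 signal (± SE, 5 arrays per diet) of the 55 members in their order along the chromosome, grey for alpha, orange for beta and purple for gamma. Filled points passed the limma threshold and open points did not. The dashed line is the difference in the mean of 12 pan-endothelial markers, -0.74. Filled points are found from Pcdhb7 to Pcdhgc3 and none among the alpha genes.

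Level went along with the count between the clusters and within the gamma cluster. The mean over all 10 arrays lay above the array median for 18 of 22 gamma genes, 8 of 22 beta genes and 1 of 11 alpha genes. Among genes of the whole table above that median, 2074 of 12314 were lower with CDAA, or 16.8%. All 12 gamma calls fell among the 18 brighter gamma genes, whose median difference was -1.03. The 4 dimmer gamma genes had a median difference of -0.13. In the beta cluster 3 of 8 brighter and 5 of 14 dimmer genes passed. Among genes of the whole table not above the median, 181 of 12390 were lower, or 1.46%. The part of signal level in the differing counts of the clusters was not tested.

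Within the gamma cluster, Pcdhgb5 (probe set 93702_at) had the largest difference of all 55 members. Its log2 signal was 3.63, 4.94, 3.33, 4.47 and 3.81 in CDAA 1 to CDAA 5, against 5.89, 6.17, 5.52, 5.48 and 5.28 in Std 1 to Std 5. Every CDAA array lay below every Std array, and CDAA 1, CDAA 3 and CDAA 5 lay below the array median. The difference was -1.63 ± 0.28 (SE, n = 5 each), a 3.11-fold lower signal. It belongs to the B type of gamma protocadherins, adhesive isoforms with the same build as the A type but a separate branch by sequence.

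Pcdhga10 (93722_at), an A-type isoform, was more even within each diet. It measured 5.30, 4.76, 4.65, 5.43 and 4.75 in CDAA 1 to CDAA 5, against 5.92, 6.26, 6.01, 6.26 and 5.95 in Std 1 to Std 5. The groups did not overlap, and all arrays stayed above the array median. The difference was -1.10 ± 0.16 (SE, n = 5 each), or 2.15-fold lower with CDAA. Pcdhgb5 and Pcdhga10 both kept their call when any single array was left out.

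Of the 12 A-type genes 7 were lower, against a background of 9.13% of all genes, with a median difference of -0.88. Pcdhga4 had the lowest value of the A type at -1.58 ± 0.35 (SE). Its signals were 3.29, 3.49, 2.84, 5.05 and 4.04 in CDAA 1 to CDAA 5, against 5.53, 4.56, 5.36, 5.65 and 5.49 in Std 1 to Std 5. CDAA 4 lay above Std 2, so the diets overlapped in these arrays. Pcdhga3 averaged 4.38 ± 0.90 with CDAA and 5.77 ± 0.21 with Std (SD, n = 5 each), without overlap, and CDAA 3 was its lowest array at 3.11. Pcdhga7 averaged 4.04 ± 0.66 with CDAA and 5.34 ± 0.56 with Std, and CDAA 4 at 4.93 exceeded Std 1 and Std 3. For Pcdhga1 the CDAA arrays spanned 5.18 to 6.15, against 6.38 to 6.93 in Std, a difference of -1.03 ± 0.19 (SE). The remaining A-type calls were smaller. Pcdhga5 differed by -0.66 ± 0.15 and Pcdhga9 by -0.74 ± 0.19 (SE), and for Pcdhga9 the highest CDAA and the lowest Std array were both 5.16 after rounding. Pcdhga9 did not pass without Std 1 (-0.68) or Std 4 (-0.70). Pcdhga6, at -1.03 ± 0.33, lay just outside the threshold.

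Of the 7 B-type genes 4 were lower, against a background of 9.13% of all genes, with a median difference of -0.94. Pcdhgb7 stood at 5.10, 5.21, 3.61, 5.73 and 5.82 in CDAA 1 to CDAA 5, against 7.09, 6.11, 6.04, 6.58 and 6.72 in Std 1 to Std 5. The groups did not overlap, and CDAA 3 lay furthest down. Its difference was -1.42 ± 0.37 (SE), and it did not pass without Std 1 (-1.27). Pcdhgb6 averaged 5.96 ± 0.49 with CDAA and 6.90 ± 0.15 with Std (SD, n = 5 each), with no overlap. Pcdhgb1 measured 6.49, 7.65, 5.68, 7.56 and 7.75 in CDAA 1 to CDAA 5, against 8.59, 7.79, 8.29, 8.43 and 7.97 in Std 1 to Std 5. The gap between CDAA 5 and Std 2 was narrow, and the call was kept in only 5 of the 10 fits that left out 1 array. The difference was -1.19 ± 0.36 (SE) and did not pass without CDAA 1 (-1.06), Std 1 (-1.10), Std 3 (-1.17), Std 4 (-1.14) or Std 5 (-1.25). Pcdhgb2 averaged 8.79 ± 0.52 with CDAA and 9.39 ± 0.24 with Std, overlapped, and did not pass. Pcdhgb4 lay just outside the threshold at -0.69 ± 0.22 (SE). Pcdhgb8, which RefSeq lists as a transcribed pseudogene, was the only gamma member with a difference above 0, at 0.10 ± 0.28 (SE), and it was above the array median on all 10 arrays.

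Among the 3 C-type gamma genes only Pcdhgc3 passed, against a background of 9.13% of all genes lower. Pcdhgc3, whose inner end binds Axin1 and shapes dendrites of mouse cortical neurons, measured 6.42, 6.29, 6.20, 7.21 and 5.82 in CDAA 1 to CDAA 5, against 7.46, 7.53, 7.39, 7.35 and 7.40 in Std 1 to Std 5. The Std arrays lay close together and CDAA 4 came nearest to them. Its difference was -1.03 ± 0.20 (SE), or 2.05-fold lower with CDAA. Pcdhgc4, on which the survival of many mouse neurons depends, averaged 3.49 ± 0.31 with CDAA and 3.58 ± 0.11 with Std (SD, n = 5 each). For Pcdhgc5 the averages were 2.87 ± 0.33 with CDAA and 3.04 ± 0.46 with Std. Both stayed at or below the array median with overlapping groups, apart from CDAA 4 for Pcdhgc4 at 4.00.

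**Figure D2:**
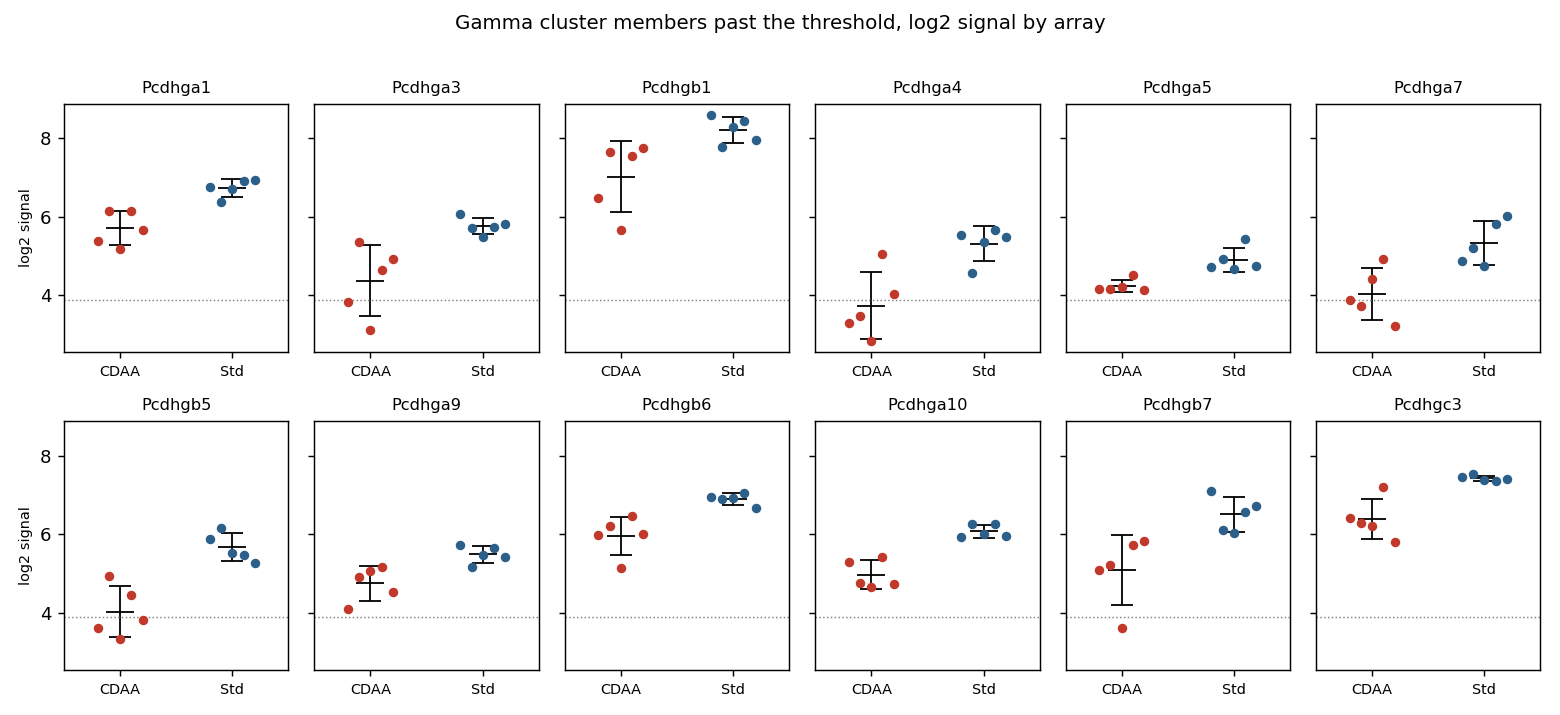
Log2 signal of the 12 gamma members past the threshold, 1 point per array, CDAA in red and Std in blue, with the mean and SD in black and the array median of 3.89 dotted. Only Pcdhga4 and Pcdhga7 have a CDAA array above a Std array; CDAA 3 is the lowest point for Pcdhga3, Pcdhgb1 and Pcdhgb7, among others.

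Beta protocadherins share the outer adhesive repeats of the family but no common inner end. The 8 beta genes past the threshold differed by -1.14 to -0.42. Pcdhb17 (93888_at) was the lowest beta member. It stood at 3.92, 4.71, 3.60, 4.85 and 4.56 in CDAA 1 to CDAA 5, against 5.57, 5.29, 5.61, 5.49 and 5.40 in Std 1 to Std 5. The diets did not overlap, with CDAA 1 and CDAA 3 at the bottom. The difference was -1.14 ± 0.21 (SE), 2.21-fold lower with CDAA. Pcdhb15 averaged 3.44 ± 0.27 with CDAA and 4.25 ± 0.25 with Std, and Pcdhb18 3.55 ± 0.36 with CDAA and 4.27 ± 0.16 with Std (SD, n = 5 each). In both genes the groups did not overlap, and nearly all CDAA arrays lay below the array median. Pcdhb20 averaged 4.72 ± 0.37 with CDAA and 5.34 ± 0.04 with Std, above the median on every array. Pcdhb8 and Pcdhb16 differed by -0.69 ± 0.17 and -0.60 ± 0.15 (SE). The Pcdhb8 arrays spanned 2.97 to 3.38 with CDAA and 3.47 to 4.43 with Std, without overlap, whereas for Pcdhb16 CDAA 4 at 3.57 exceeded Std 5 at 3.40.

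The last beta calls were often lost when a single array was left out. Pcdhb7 differed by -0.42 ± 0.12 (SE) and passed only without CDAA 2 or Std 3 among the fits that left out 1 array, with values of -0.45 to -0.35 in the fits where it did not pass. Pcdhb22 differed by -0.52 ± 0.15 (SE) and did not pass without CDAA 1 (-0.53), CDAA 3 (-0.41), CDAA 5 (-0.48), Std 1 (-0.47), Std 3 (-0.46) or Std 4 (-0.54). Pcdhb14, named here for its mean signal, averaged 5.43 ± 0.71 with CDAA and 6.12 ± 0.16 with Std (SD, n = 5 each). CDAA 1 and CDAA 3 were at 4.92 and 4.42, while the other CDAA arrays at 5.88 to 5.97 lay close to the lowest Std array at 5.93, and the gene did not pass. Pcdhb12, at -0.70 ± 0.24 (SE), did not pass either.

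**Figure D3:**
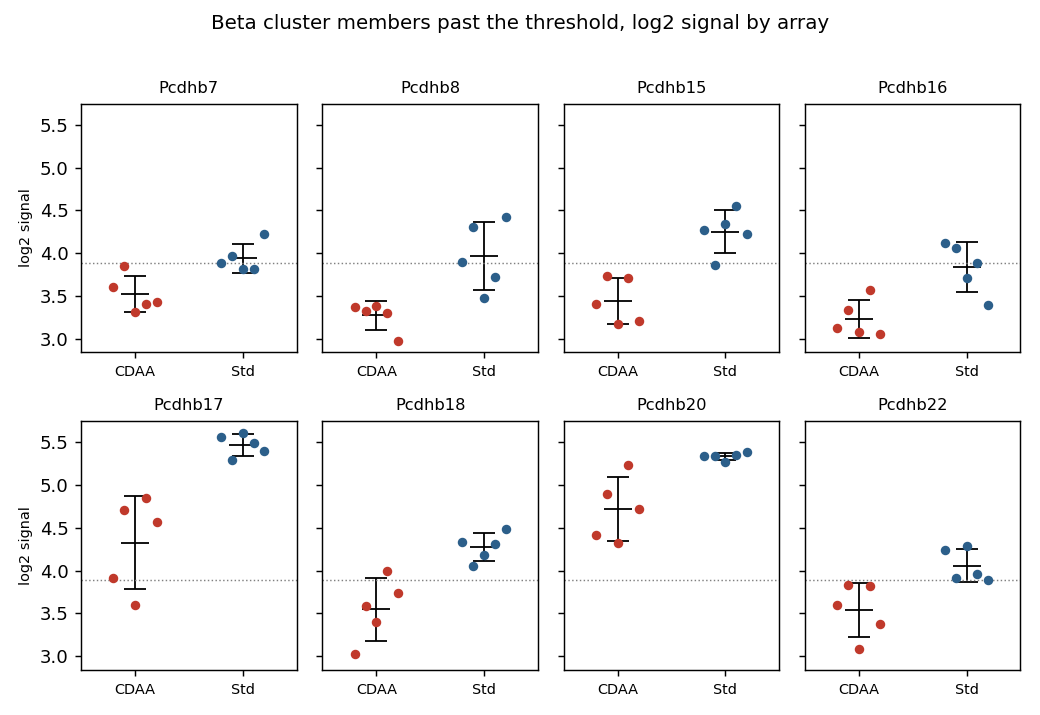
Log2 signal of the 8 beta members past the threshold, 1 point per array, CDAA in red and Std in blue, with the mean and SD in black and the array median of 3.89 dotted. The groups do not overlap for 6 of the 8; Pcdhb7 and Pcdhb16 are the exceptions, and many CDAA points lie below the median line.

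The beta calls lay mostly toward the gamma cluster. When the 22 beta genes were split at the middle of their order along the chromosome, 6 of the 11 genes next to the gamma cluster were lower (Pcdhb15, Pcdhb16, Pcdhb17, Pcdhb18, Pcdhb20 and Pcdhb22), and 2 of the 11 next to the alpha cluster (Pcdhb7 and Pcdhb8). Their median differences were -0.62 and -0.20. Brighter genes were also more frequent on the gamma side, with 6 of 11 above the array median against 2 of 11. The split was made after the values were seen and was not tested.

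Of the 11 alpha protocadherins, 10 had a mean signal that was not above the array median. Pcdha3 was the only alpha gene above the median on all arrays. It measured 4.95, 4.94, 5.45, 5.34 and 5.52 in CDAA 1 to CDAA 5, against 5.33, 5.92, 4.99, 4.50 and 4.81 in Std 1 to Std 5. The groups overlapped fully, with a difference of 0.13 ± 0.23 (SE). Pcdha11 averaged 3.53 ± 0.52 with CDAA and 3.21 ± 0.41 with Std (SD, n = 5 each), also overlapping. Pcdhac1 averaged 2.74 ± 0.88 with CDAA and 2.95 ± 0.47 with Std. For Pcdhac2, which mouse serotonergic axons need to spread evenly, the averages were 2.13 ± 0.32 with CDAA and 2.45 ± 0.28 with Std. Of the 11 alpha genes 6 were below the array median on all 10 arrays. Pcdha10 reached 3.91 in CDAA 1 but only 1.98 to 2.97 in CDAA 2 to CDAA 5, beside 3.26 to 3.75 in Std. It did not pass over all arrays (-0.62 ± 0.27, SE) but did without CDAA 1 and CDAA 3 (-0.95).

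Most members varied more within CDAA than within Std. The SD over 5 arrays was larger in CDAA for 44 of 55 members, against 16004 of all 24704 genes. The median SD of gamma genes was 0.49 with CDAA and 0.32 with Std, beside 0.21 and 0.17 over all genes. For beta genes it was 0.25 with CDAA and 0.19 with Std. Alpha genes had the reverse order, 0.36 with CDAA and 0.41 with Std. CDAA 3 was the lowest CDAA array for 14 of 22 gamma and 13 of 22 beta genes, and CDAA 4 the highest for 11 and 10. In the alpha cluster CDAA 5 was most often the lowest, for 6 of 11 genes. The mean over the 22 gamma genes was 4.52, 4.88, 4.27, 5.19 and 4.80 in CDAA 1 to CDAA 5, against 5.40 to 5.68 in Std. The beta mean followed the same order of CDAA arrays, from 3.19 in CDAA 3 to 3.74 in CDAA 4, against 3.80 to 3.93 in Std. The alpha mean did not, with its highest CDAA value, 3.16, in CDAA 1.

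Markers of several cell types moved with these differences. The mean of 12 pan-endothelial markers was 10.18, 10.74, 9.81, 10.88 and 10.61 in CDAA 1 to CDAA 5, against 11.10 to 11.27 in Std, the same order of CDAA arrays as the gamma and beta means. In this list 9 of 12 genes fell and none rose, with the VEGF receptor Flt1 down by 1.34 ± 0.21 (SE, limma adjusted p = 0.00129). The background for this and the other marker lists was 9.13% of all genes lower and 7.49% higher. In bulk cells, fewer cells of a type and less RNA per cell cannot be told apart. The mean of 15 stellate cell and fibroblast markers had the reverse order, from 8.04 in CDAA 3 to 6.59 in CDAA 4, against 5.75 to 6.19 in Std, and 9 of 15 rose, among them the collagen chain Col1a1 by 3.43. Resident Kupffer cell markers averaged 7.23 to 8.01 with CDAA and 8.33 to 9.42 with Std, and 6 of 8 fell. All 7 measured bile duct markers and 7 of 9 recruited macrophage markers rose. The hepatocyte marker means overlapped, at 7.46 to 8.54 with CDAA and 7.08 to 7.78 with Std, while 3 of 8 genes rose and 2 fell. The plasma protein genes Serpina1c, Ttr and Alb rose by 2.19, 1.54 and 1.28, and the enzyme genes Ass1 and Cyp2e1 differed by -1.18 and -1.13. The mesothelial marker means also overlapped, and 0 of 6 genes passed in limma, with 0 at an unadjusted p under 0.05. Glial and neuronal markers averaged 3.48 to 3.62 with CDAA and 3.35 to 3.49 with Std, below the array median. Of these 10 genes none fell, and Map2 and Syt1 rose by 0.78 and 0.56. The defining glial factor Sox10 was at 3.38 ± 0.16 with CDAA and 3.26 ± 0.26 with Std (SD, n = 5 each). The part of cell composition in the protocadherin differences was not tested apart from the values that follow.

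**Figure D4:**
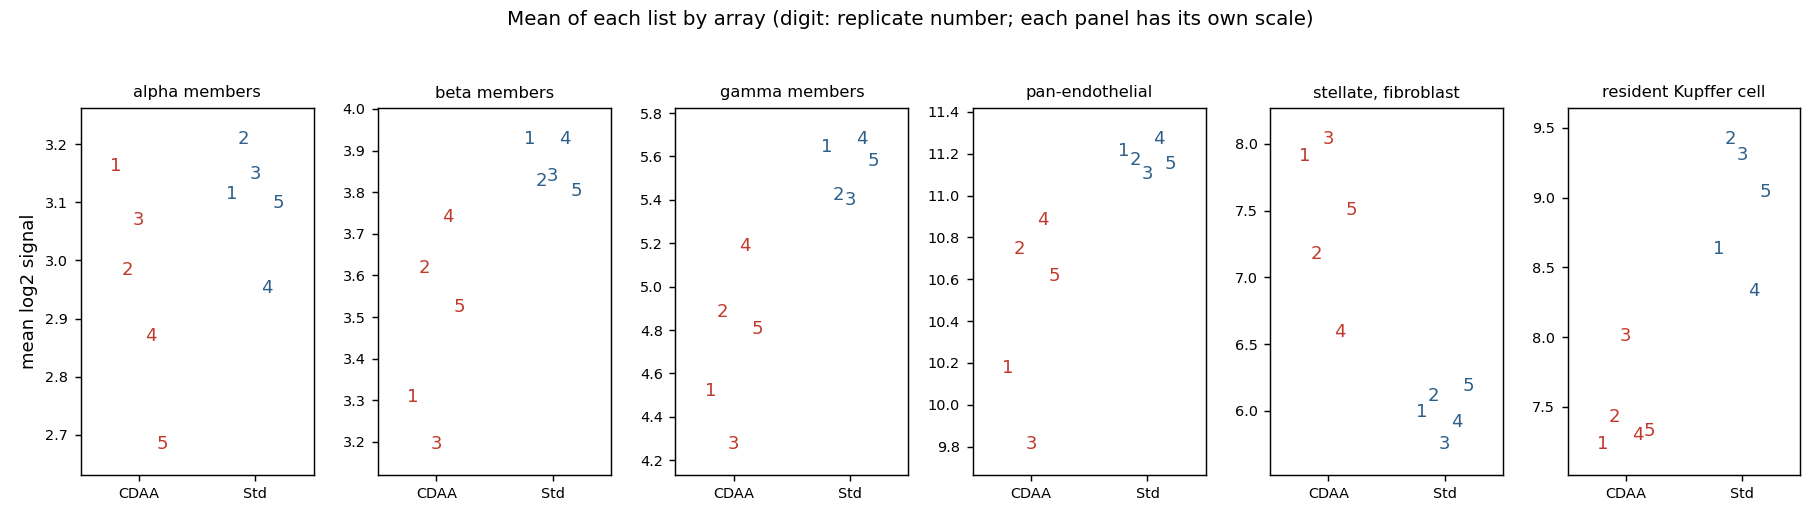
Mean log2 signal per array of the alpha, beta and gamma members and of 3 marker lists, CDAA left and Std right, with the replicate number as the symbol and a separate scale in each panel. The beta, gamma and pan-endothelial panels have the same order of CDAA arrays, with CDAA 3 lowest and CDAA 4 highest, and the stellate and fibroblast panel has the reverse.

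Set against the pan-endothelial mean of the same array, which was 0.74 lower with CDAA, part of the gamma genes stood lower still. The difference left over was -0.90 for Pcdhgb5, -0.84 for Pcdhga4, -0.68 for Pcdhgb7, -0.66 for Pcdhga3 and -0.37 for Pcdhga10. For Pcdhga9 it was -0.0026 and for Pcdhga5 0.072. On this scale all CDAA arrays lay below all Std arrays for 1 member, Pcdhb17, against a background of 0.470% of all genes. All CDAA arrays lay above all Std arrays for 6 members (Pcdhb2, Pcdhb3, Pcdhb10, Pcdhb19, Pcdhb21 and Pcdhgc4), against a background of 46.9%. When each array's pan-endothelial mean entered the fit as a covariate, 0 of 55 members passed in limma in either direction, against a background of 0.389% lower and 0.818% higher. At an unadjusted p under 0.05, 6 members were lower and 2 higher, with no share of all genes counted at that level. The covariate itself had no overlap between the diets. Under that fit Pcdhga7 was at -1.29, Pcdhga10 at -0.89, Pcdhgb5 at -0.73 and Pcdhgc3 at -0.72, whereas 17 of 55 members changed sign, among them Pcdhgb1 (0.26), Pcdhb14 (0.48), Pcdhga6 (0.12) and Pcdhb12 (0.11). The median over gamma genes was then -0.24 and over beta genes 0.01.

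**Figure D5:**
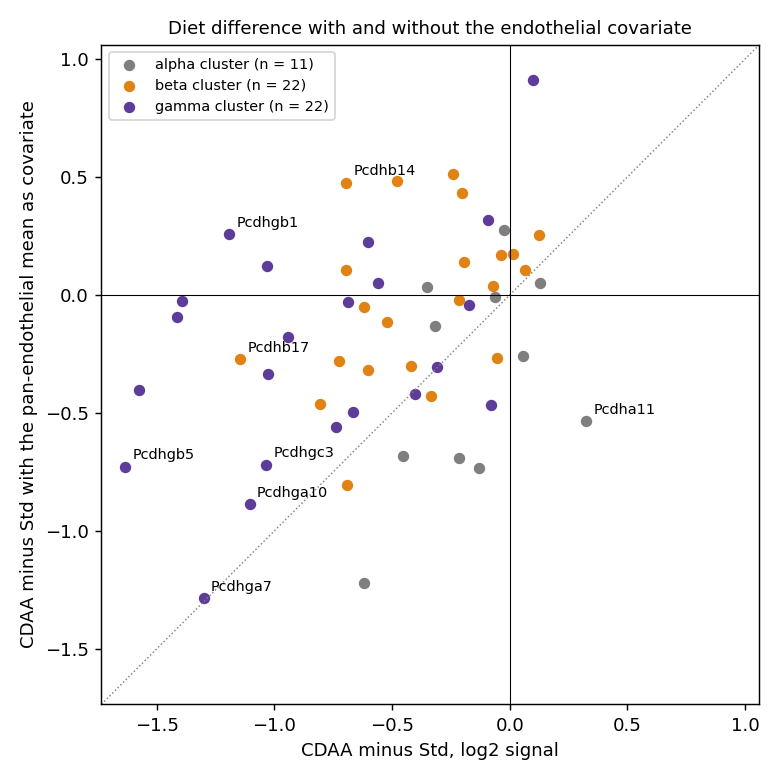
CDAA minus Std difference in log2 signal of the 55 members (x axis) against the same difference after the pan-endothelial mean was added to the fit (y axis). Points on the dotted line are equal in both fits, as Pcdhga7 nearly is; Pcdhgb1 and Pcdhb14 are among 17 members that change sign, and no member passed the threshold on the y axis.

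Without CDAA 1 and CDAA 3, the arrays with the lowest pan-endothelial means, 14 members were lower, against a background of 5.29%. They were 9 gamma genes (Pcdhga1, Pcdhga3, Pcdhga5, Pcdhga9, Pcdhga10, Pcdhgb5, Pcdhgb6, Pcdhgb7 and Pcdhgc3), 4 beta genes (Pcdhb8, Pcdhb15, Pcdhb17 and Pcdhb18) and Pcdha10. Of the 20 calls over all arrays, 13 were kept. The median difference was -0.61 over gamma and -0.20 over beta genes, against -0.84 and -0.38 over all arrays. Over alpha genes it was -0.13 in both. Pcdhgb5 was at -1.26 and Pcdhga10 at -1.10 in that fit, beside -1.63 and -1.10 over all arrays.

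Genes flanking the clusters did not follow one direction. Of 19 neighbours 3 fell and 5 rose, against a background of 9.13% of all genes lower and 7.49% higher. Their median difference was 0.02. Taf7, a subunit of the basal transcription factor TFIID whose gene lies between the beta and gamma clusters, fell by 0.63 ± 0.14 (SE, limma adjusted p = 0.00886). The mitochondrial carrier gene Slc25a2, also between these clusters, differed by -0.17 ± 0.11 (SE) with signals below the array median. Beyond the gamma cluster the endothelial genes Arap3 and Pcdh12 fell by 0.78 ± 0.16 and 1.13 ± 0.21 (SE, limma adjusted p = 0.00652 and 0.00315). On the far side of the alpha cluster Cd14, a lipopolysaccharide co-receptor of macrophages, rose by 1.93 ± 0.43 (SE, limma adjusted p = 0.00903). Cd14 did not pass without CDAA 1 and CDAA 3 (1.46). With those arrays left out, 3 neighbours fell and 0 rose in limma, beside 1307 lower and 1305 higher of all 24704 genes. At an unadjusted p under 0.05 the neighbour counts were 4 lower and 6 higher, and the share of all genes was not counted.

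Of 20 genes known to take part in choosing or silencing protocadherin promoters, 2 rose and 1 fell, with a median difference of -0.10. Over all genes 7.49% were higher and 9.13% lower, so the count of regulators is close to the background. Ctcf averaged 8.30 ± 0.10 with CDAA and 8.39 ± 0.07 with Std (SD, n = 5 each; limma adjusted p = 0.565). The cohesin subunit gene Rad21 differed by -0.12 ± 0.10 and Smchd1, which helps to silence the clusters in mice, by -0.01 ± 0.12 (SE), and neither passed. Dnmt3a, a DNA methyltransferase, rose by 0.52 ± 0.12 and the corepressor gene Trim28 by 0.46 ± 0.11 (SE, limma adjusted p = 0.00977 and 0.0163). The other DNA methyltransferase genes of the list, Dnmt3b and Dnmt1, differed by -0.38 ± 0.20 and -0.05 ± 0.11 (SE), and neither passed. Setdb1, a histone H3 methyltransferase that represses the clusters in mouse neurons, fell by 0.28 ± 0.09 (SE, limma adjusted p = 0.0483). The Setdb1 call was lost when any single array other than CDAA 2 was left out, at -0.30 to -0.25.

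Of 13 genes for shedding and inner-end partners 2 fell and none rose, against a background of 9.13% of all genes lower and 7.49% higher. The sheddase gene Adam10, whose product cuts the outer part of gamma protocadherins, averaged 10.16 ± 0.10 with CDAA and 10.05 ± 0.05 with Std (SD, n = 5 each; limma adjusted p = 0.455). Ncstn, a gamma-secretase subunit, fell by 0.46 ± 0.12, and the kinase gene Fyn by 0.66 ± 0.14 (SE, limma adjusted p = 0.0181 and 0.00666); Ncstn did not pass without CDAA 1 and CDAA 3 (-0.33).

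Counts for other cadherins are set beside a background of 9.13% of all genes lower and 7.49% higher. Of 12 protocadherins outside the clusters only Pcdh12 fell and none rose, with a median difference of 0.04. The count of 1 in 12 is close to that background. Of these 12 genes 9 lay below the array median on all 10 arrays, which limits what can be seen of them. Pcdh12 averaged 8.60 ± 0.53 with CDAA and 9.73 ± 0.08 with Std (SD, n = 5 each), and Pcdh1 4.77 ± 0.39 with CDAA and 4.75 ± 0.17 with Std. Among 12 classical cadherin and catenin genes 5 rose and 2 fell. The epithelial cadherin Cdh1 rose by 3.07 ± 0.35, Cdh6 by 2.17 ± 0.14 and Cdh3 by 1.01 ± 0.17, while Cdh13 fell by 0.99 ± 0.24 (SE, limma adjusted p = 0.0131). Cdh5 fell by 0.64 ± 0.17 (SE, limma adjusted p = 0.0204) and did not pass without Std 4 (-0.63). These lists were not tested against the clustered members.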

How the data were processed

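The deposited values are log2 signals. Per the submitters' processing notes the authors used RMA (robust multi-array averaging), a method that corrects background, equalises the distributions of the arrays and combines the probes of a set. Its version and the array design and genome build are not given in the sources used here. Of 25428 probe sets, 24705 had 1 gene symbol in the platform annotation, 0 had several and 723 had none; where a gene had over 1 probe set, the one with the highest mean was kept, giving 24704 genes. The order of genes along the chromosome comes from the RefSeq annotation of GRCm38.p6, in which all 55 members matched by gene ID.

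The diets were compared, CDAA minus Std, in limma 3.58.1 (lmFit, then eBayes) under R 4.3.3. Tests were two-sided, adjusted after Benjamini-Hochberg over all genes, with a threshold of 0.05. The fit was tested on simulated data with independent genes and the same spread in both diets. That simulation does not cover the larger and shared variation of the CDAA arrays described above. The number of arrays limits the precision. Each p-value sets the diet difference against the spread between pools within a diet, with variance information shared across genes by eBayes. The spread between single mice cannot be seen, as each array carried a pool of 3. Figures were drawn with matplotlib 3.10.9. The labels give no batch.

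Members and 13 gene lists were chosen with earlier results of these data known. The text names members past the threshold or without overlap, C-type isoforms, Pcdhgb5, Pcdhga10 and the 2 brightest of each cluster, plus up to 4 called genes per list and Ctcf, Rad21, Smchd1, Adam10, Pcdh1, Pcdh12 and Cdh5; others were chosen after their values were seen. Other settings are given in the closing section.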

Additional observations from a re-analysis of the deposited data

Results flagged for a closer look

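Of 110 sets of 5 arrays (55 members in 2 diets), 6 held an array whose gap to its nearest neighbour exceeded 0.71 of the range of the set; chance gives about 1 in 20, or 5.5. Pcdha5 was at 2.49 in CDAA 5, with the other CDAA arrays at 2.98 to 3.03. Pcdhb8 was at 2.97 in CDAA 5, below the others at 3.30 to 3.38. Pcdhga12 was at 3.50 in CDAA 3, with the others at 4.51 to 4.67. Pcdhga5 was at 4.51 in CDAA 4, above the others at 4.13 to 4.20. In Std, Pcdhb4 was at 5.08 in Std 4, above the others at 4.62 to 4.74, and Pcdhga4 was at 4.56 in Std 2, below the others at 5.36 to 5.65.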

How the results depend on the processing

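Quantile normalization again, median centring, array weights, a variance trend and leaving out the dimmest 25% gave 19 to 22 lower members, and leaving out 1 array 15 to 21 (gamma 9 to 13, beta 6 to 8, alpha 0 to 1). Leaving out genes below the median kept 27 members in the fit and gave 18 lower, with 4 beta genes, against 20.2% of all genes kept. Without CDAA 1 and CDAA 3 the count was 14, with 4 beta genes and 1 alpha gene, against 5.29% of all genes. Same-numbered arrays of the diets correlated by 0.016 to 0.25 after removal of diet means, not all above 0.1. CDAA 2, CDAA 3 and CDAA 4 correlated best with the Std array of their own number. CDAA 1 correlated best with Std 3 and CDAA 5 with Std 2. The numbers were not taken as pairs in the main fit, and a fit with the number as a block is given beside it. With the replicate block 21 members were lower, 13 of them gamma and 8 beta, against 9.25% of all genes. Of the 20 calls 18 were shared. No setting called a member higher. With the pan-endothelial or the stellate cell mean as a covariate, both of which separate the diets, the count was 0 in every cluster by limma. Of all genes 0.389% and 0.00810% were lower. At an unadjusted p under 0.05, 6 and 2 members were lower, and the share of all genes was not counted. The lists include the genes averaged into each covariate, whose mean difference in that fit is 0 by construction. In these fits 22 and 4 list genes passed, of which 20 and 4 were among the 63 called without a covariate. Pcdhgb5 was then at -0.73 and -0.47 and Pcdhga10 at -0.89 and -0.73; without 1 array they ranged from -1.86 to -1.46 and from -1.22 to -1.02. The cause of these losses was not tested.

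Of all 55 members, the sign turned for 17 with the pan-endothelial covariate, 24 with the stellate cell covariate and 7 without CDAA 1 and CDAA 3. Among the genes chosen by the naming rule, signs turned without passing with the pan-endothelial covariate for Pcdhgb1 (0.26), Pcdhgc4 (0.32), Pcdha11 (-0.53), Pcdhb14 (0.48), Pcdhgb2 (0.22), Ctcf (0.030), Rad21 (0.12) and Cdh5 (0.016). Cdh5 is itself 1 of the 12 genes averaged into that covariate, so nothing is read from its small value there. With the stellate cell covariate signs turned for Pcdhb17 (0.045), Pcdhb20 (0.20), Pcdhb22 (0.13), Pcdhgb1 (0.52), Pcdhga4 (0.24), Pcdhgb6 (0.052), Pcdhgc4 (0.51), Pcdha11 (-0.60), Pcdhb14 (0.72), Pcdhgb2 (0.28), Dnmt3a (-0.040), Ncstn (0.11), Cdh13 (0.33), Tek (0.15), Ctcf (0.074), Rad21 (0.14) and Cdh5 (0.13). Without CDAA 1 and CDAA 3 they turned for Pcdhgc4 (0.057), Pcdha11 (-0.0081) and Rad21 (0.0030). Leaving out 1 array gave ranges that cross 0: Pcdhac1 from -0.56 to 0.034, Pcdhgc5 from -0.31 to 0.0077, Pcdha3 from -0.021 to 0.33, Smchd1 from -0.079 to 0.058 and Pcdh1 from -0.10 to 0.17. The signal of 17 members lay below the array median on all 10 arrays, which limits what can be seen of them.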
